A study of Homo sapiens with 15 samples.

Results

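The stereoprobes WX-02-23 and WX-02-43 were compared directly through the FOXA1 peak lists of parental 22Rv1, a cell line established from a human prostate carcinoma. The members were all 35445 peaks of these lists, of 249079 peaks in the 12 lists of the series: 17217 called after WX-02-23 and 18228 after WX-02-43. Each list came from 1 chromatin immunoprecipitation sequencing (ChIP-seq) library, and each compound was given at 20 µM for 3 h. A peak was taken as shared when it overlapped a peak of the other list by 1 bp or more, and as private otherwise. This is 1 pair of compounds at a matched dose and time. With 1 library per compound there is no spread between replicates, so no test between conditions was made. The shares below carry Wilson 95% binomial intervals, which count peaks as if they were independent and so show counting error alone.

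The other 10 lists of the series served as measurements that the choice of members did not use. In parental cells they came from DMSO at 0.1% for 3 h, PladB (pladienolide B, which binds the splicing factor complex that contains PHF5A) for 3 h, a small interfering RNA against FOXA1 (siFOXA1) and a control one (siControl). The labels disagree on PladB, with 100 nM on the sample itself and 10 nM in the shared protocol. The engineered lines carried Y36C-PHF5A with a doxycycline-inducible FOXA1, either wild type (WT) or with the C258A change. Either line has 3 lists: DMSO without doxycycline, and, after induction, DMSO or WX-02-23 at 20 µM. Treatment of these lines also lasted 3 h, with DMSO at 0.1%. For every sample the labels give 1.1% formaldehyde. WX-02-43 was not profiled in the engineered lines. Doses of doxycycline and of the small interfering RNAs, and whether a line is 1 clone, are not given in the sources used here. Peaks were also listed without doxycycline (8575 in the WT and 12752 in the C258A line), and the labels name no tag that would separate induced FOXA1 from the cells' own.

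FOXA1 is a forkhead transcription factor that can bind its DNA motif on nucleosomes and open the chromatin around it, which is why it is called a pioneer factor. In prostate luminal cells it marks many of the enhancers that the androgen receptor then uses. The labels call both compounds stereoprobes and give no structures. The series title speaks of covalent molecules, and C258A puts an alanine in the place of a cysteine of FOXA1.

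Most peaks were common to both compounds. Of the WX-02-23 peaks, 12298 (71.4%, 70.7 to 72.1%) were shared, and 4919 (28.6%, 27.9 to 29.3%) were private. Of the WX-02-43 peaks, 12312 (67.5%, 66.9 to 68.2%) were shared, and 5916 (32.5%, 31.8 to 33.1%) were private. The counts of shared peaks differ because 117 WX-02-23 peaks and 105 WX-02-43 peaks overlapped more than 1 peak of the other list. Merged into sites, the lists gave 23025 regions, of which 12190 (52.9%) carried peaks of both compounds. The lists are of similar but not equal length. With the WX-02-43 list cut to its 17217 highest-scoring peaks, 69.6% of each list was shared, with 5232 peaks private to WX-02-23 and 5233 to WX-02-43. At equal length the private counts are nearly equal by construction.

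The division between private and shared was clear in position. The median overlap at one-to-one pairs was 609 bp, and 24 of all 12420 overlapping pairs shared 50 bp or less. On the other side, 12 private WX-02-23 peaks and 11 private WX-02-43 peaks lay within 50 bp of a peak of the other list. Private WX-02-23 peaks lay a median of 40.6 kb from the nearest WX-02-43 peak, and private WX-02-43 peaks 44.4 kb from the nearest WX-02-23 peak. Within 1000 bp of the other list were 4.74% and 3.89% of them.

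Private peaks were weak in both lists, as the plot of private share by score shows. The deposited files give each peak a score whose definition is not stated, so it was used for ranks within a list. In the highest-scoring decile (10% of the list) with WX-02-23, 18 of 1721 peaks (1.05%, 0.663 to 1.65%) were private. In the lowest-scoring decile, 1049 of 1721 (61.0%, 58.6 to 63.2%) were. For WX-02-43 the corresponding counts were 9 of 1823 (0.494%, 0.260 to 0.936%) and 1243 of 1824 (68.1%, 66.0 to 70.2%). The median score percentile of private peaks (100 is the highest score of the list) was 25.3 with WX-02-23 and 25.5 with WX-02-43. Shared peaks had medians of 61.7 and 64.0. In score alone, the private peaks of the 2 compounds were therefore placed alike.

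**Figure D1:**
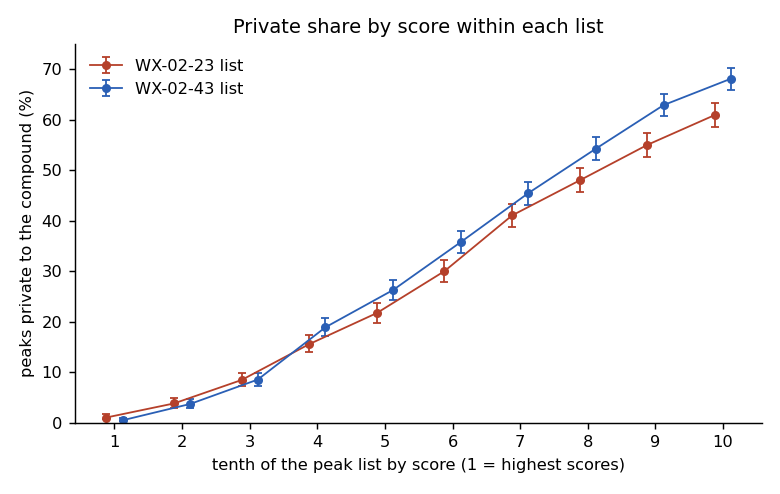
Share of peaks private to each compound (y axis, %) in each decile of its own list by score (x axis, 1 is the highest), with Wilson 95% intervals as bars. Both curves start near 1% or below and end at 61.0% for WX-02-23 and 68.1% for WX-02-43.

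Private peaks were also narrower. Their median width was 513 bp with WX-02-23 (quartiles 422 and 628 bp), against 702 bp (556 and 901 bp) for shared peaks. With WX-02-43 it was 540 bp (440 and 645 bp), against 706 bp (571 and 892 bp). Width follows score in these lists, so the comparison was repeated within deciles of score. Private peaks had the smaller median width in 10 of 10 deciles for WX-02-23 but in 6 of 10 for WX-02-43. The gap was then much smaller: in the lowest decile the medians were 421 and 441 bp for WX-02-23 and 429 and 447 bp for WX-02-43. At one-to-one pairs the widths of the 2 lists hardly differed, with medians of 700 bp with WX-02-23 and 705 bp with WX-02-43. The peak was wider with WX-02-23 in 49.1% of pairs. The centres of paired peaks lay a median of 54.5 bp apart.

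Spacing hardly separated the classes with WX-02-23 and differed slightly between them with WX-02-43. The median distance from a private peak to the nearest peak of its own list was 41.3 kb with WX-02-23 and 41.2 kb with WX-02-43. For shared peaks it was 41.7 and 38.9 kb. Neighbours within 5 kb were found for 15.4% of private and 15.0% of shared WX-02-23 peaks, and for 13.0% and 15.0% with WX-02-43. Along the genome, the site after a site private to WX-02-23 was again private to WX-02-23 in 23.1% of cases, beside 21.4% of all sites. For WX-02-43 the values were 26.6% and 25.7%. Runs of 3 or more neighbouring private sites held 15.0% of the WX-02-23 sites and 18.2% of the WX-02-43 sites. The level for sites in random order was not computed. The longest run of WX-02-23 sites had 9 sites over 1009 kb, at chr10:52949165-53958417 in hg19. The next had 7 sites over 243 kb, at chr17:37895527-38138093. Of the runs of WX-02-43 sites, the longest had 6 sites, and the first of these in genome order was chr5:55118897-55394190.

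What set the private peaks of the 2 compounds apart was where they stood in cells given neither compound. Of the private WX-02-43 peaks, 86.5% (85.6 to 87.3%) were DMSO peaks, 89.5% were PladB peaks and 90.8% were siControl peaks. For private WX-02-23 peaks the shares were 52.0% (50.6 to 53.4%), 57.1% and 57.4%. Shared peaks were listed with DMSO at 97.5% in both lists. All 3 of these lists held 4834 (81.7%, 80.7 to 82.7%) of the private WX-02-43 peaks and 2049 (41.7%, 40.3 to 43.0%) of the private WX-02-23 peaks. None of the 3 held 309 (5.22%, 4.68 to 5.82%) and 1520 (30.9%, 29.6 to 32.2%). Depth cannot be read from the files, and the DMSO, PladB and siControl lists are longer, at 30557, 33121 and 34119 peaks. A longer list reaches weaker sites, and the same 3 lists were used for both compounds.

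The difference was present at every level of score. In the highest quintile (20%) of each list, 59 of 84 private WX-02-23 peaks (70.2%, 59.8 to 79.0%) were DMSO peaks, and 77 of 77 private WX-02-43 peaks were. In the lowest quintile the shares were 46.2% (44.0 to 48.4%) and 76.2% (74.4 to 77.9%). Private WX-02-23 peaks listed with none of DMSO, PladB and siControl had a median score percentile of 21.1, against 28.9 for those listed with all 3. For private WX-02-43 peaks the medians were 10.7 and 29.7, so those listed with none lay near the bottom of the list.

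The DMSO list gives a scale that neither compound sets. Of its 30557 peaks, 11893 (38.9%) were listed with both compounds, 5062 (16.6%) with WX-02-43 alone, 2529 (8.28%) with WX-02-23 alone and 11073 (36.2%) with neither. The median DMSO score percentile was 78.9 for peaks listed with both, 54.5 for those with WX-02-43 alone, 36.7 for those with WX-02-23 alone and 23.6 for those with neither. Among the 3056 DMSO peaks with the highest scores, 75 were listed with WX-02-43 alone and 0 with WX-02-23 alone. In decile 2 the counts were 340 and 7, and in decile 3 they were 700 and 76. From decile 9 on the order was turned, with 283 and 347 there and 206 and 262 in the last.

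**Figure D2:**
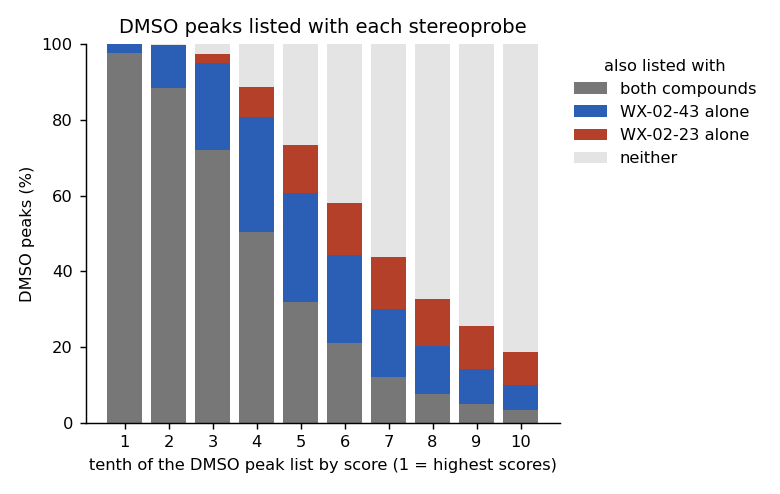
DMSO peaks (y axis, %) that were also listed with both compounds, with WX-02-43 alone, with WX-02-23 alone or with neither, in each decile of the DMSO list by score (x axis, 1 is the highest). The WX-02-43 part is 2.45% in decile 1 and 30.5% in decile 4, where the WX-02-23 part is 7.82%.

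The strongest private peaks show this by position (hg19, counted from 1). They are the 6 of each list with the highest scores, by rule. Ranks are within the named list, and ranks of lists that differ in length are placed side by side only. Among the WX-02-23 peaks, chr1:36628715-36629745 ranked 793 of 17217 with WX-02-23. It was listed with DMSO at rank 20282.5 (ties share a mean rank), with PladB at 22120 and with siControl at 30308, that is, among the weaker peaks of each. The peak at chr8:105174545-105176079 ranked 834 with WX-02-23, 24465.5 with DMSO, 10032.5 with PladB and 10614 with siControl. The peak at chr11:114000344-114001345 ranked 912, and 19348.5, 29887 and 21196.5 in those 3 lists. The widest of the 6, chr18:77378396-77380890 at 2495 bp, ranked 929 with WX-02-23 and 7437, 6948 and 2445 in the 3 lists. In those lists it stood higher than the others of the 6 did. The peak at chr14:67648773-67649757 ranked 1093, and 11690.5, 15449 and 12915. The last, chr12:80622948-80623899, ranked 1171 and was listed with none of DMSO, PladB, siControl and siFOXA1. In induced WT cells, all 6 were listed after WX-02-23 and 2 of the 6 after DMSO.

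The 6 strongest private WX-02-43 peaks were also strong peaks with DMSO, PladB and siControl. At chr16:65030189-65031261 the rank was 957 of 18228 with WX-02-43, 618 with DMSO, 590.5 with PladB and 758 with siControl. At chr3:30559568-30560383 it was 1099, and 530, 281 and 415 in those 3 lists. The peak at chr1:191907323-191908739 ranked 1228, and 882, 649 and 857. The remaining peaks were chr8:39750910-39752065, chr7:107668140-107669371 and chr4:69190303-69191238. Their ranks were 1283, 1347 and 1433 with WX-02-43 and 1314, 1231 and 1339 with DMSO. Each of the 6 was listed in both engineered lines without doxycycline and with doxycycline and DMSO, and in C258A cells with WX-02-23. Induced WT cells given WX-02-23 lacked 4 of the 6. None of the 12 named private peaks was listed with siFOXA1. That list held 1.75% of all private WX-02-23 and 0.761% of all private WX-02-43 peaks, so absence from it was common to nearly all private peaks.

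Shared peaks differed between the compounds in rank. Ranks were taken among the 11995 pairs that overlapped one to one, so that both rankings had the same length. Spearman's rho between them was 0.66, given as a description. The median change of percentile rank was 12.9 points in size, and 26.0% of pairs differed by 25 points or more. By this measure 1557 pairs (13.0%) ranked higher with WX-02-23 and 1567 (13.1%) lower. A change of 50 points or more was found for 315 pairs ranked higher and 328 ranked lower. The changes lay mostly in the middle of the ranking. In the quintile of pairs with the highest mean rank, 2.21% differed by 25 points or more, against 41.8% in the middle quintile and 15.8% in the lowest. Ranks at either end have less room to move.

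**Figure D3:**
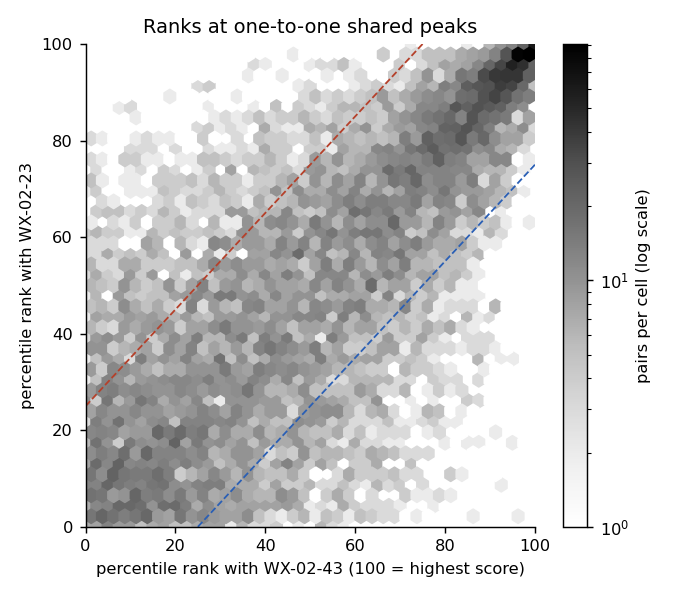
Percentile rank of each one-to-one shared peak with WX-02-43 (x axis) and with WX-02-23 (y axis), ranked among these 11995 pairs, with darker cells for more pairs (log scale). Dashed lines mark changes of 25 points: 1557 pairs lie on or above the upper line and 1567 on or below the lower one.

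Rank differences among the other parental lists were set beside those between the compounds. At 11308 sites that a WX-02-23 peak shared one to one with each of the other 4 lists, rho was 0.66 between WX-02-23 and WX-02-43. Between WX-02-43 and DMSO it was 0.84, and between WX-02-23 and DMSO 0.58. The 3 lists given neither stereoprobe had values from 0.91 to 0.94 with each other. Changes of 25 points or more were found at 25.9% of these sites between the compounds, at 13.2% between WX-02-43 and DMSO, at 32.1% between WX-02-23 and DMSO, and at 5.28% between DMSO and siControl. The peaks in common did not separate the lists in the same way. With each list cut to 17217 peaks, 69.6% of WX-02-23 peaks were shared with WX-02-43, 69.5% with DMSO, 70.0% with PladB and 69.8% with siControl, which differ by less than counting error. Of the WX-02-43 peaks 81.7% were shared with DMSO, and of the DMSO peaks 86.8% with siControl. In peaks and in ranks, the WX-02-43 list thus lay nearer to DMSO than to WX-02-23. Each of these lists is 1 library. The DMSO, PladB and siControl lists are longer as deposited, and depth is unknown. No compound has a replicate library, so these values do not show what rank change replicates would give.

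At the sites whose rank differed, DMSO ranked mostly as WX-02-43 did. The 1462 sites that ranked higher with WX-02-23 by 25 points or more had a median percentile of 64.0 with WX-02-23 and 20.4 with WX-02-43. Their medians were 27.6 with DMSO, 27.1 with PladB and 25.4 with siControl. The 1465 sites that ranked lower had medians of 20.7 with WX-02-23, 63.2 with WX-02-43, 63.0 with DMSO, 62.6 with PladB and 61.6 with siControl. The DMSO rank was nearer to the WX-02-43 rank at 76.1% of the former and 87.2% of the latter, beside 61.7% of sites that changed by under 25 points. Width followed rank. Pairs ranked higher with WX-02-23 had median widths of 788 bp with WX-02-23 and 590 bp with WX-02-43, and pairs ranked lower 587 and 800 bp.

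Single pairs moved from one end of the ranking to the other. The 5 largest differences in each direction were named, among pairs with a peak in the top 25% of either ranking. The pair at chr13:38364236-38365082 stood at percentile 90.4 with WX-02-23 (847 bp wide) and 1.82 with WX-02-43 (462 bp). The pair at chr3:186185620-186186611 stood at 88.2 and 1.68, and the pair at chr3:77240405-77241546 at 92.9 and 8.01. At chr8:93370652-93371515 the percentiles were 88.8 and 3.51, and of the other 10 lists 1 held this site, that of WT cells with WX-02-23. The largest of the 5, chrX:19470140-19470504, stood at 94.1 and 3.18. It was narrow with both compounds (365 and 327 bp) and was listed with DMSO and siFOXA1 but in none of the engineered lists.

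In the other direction, the peak at chr13:89066932-89067331 stood at percentile 1.28 with WX-02-23 (400 bp) and 95.6 with WX-02-43 (944 bp). At chr9:128103771-128104186 the percentiles were 3.07 and 97.2, and the widths 416 and 1155 bp. The pairs at chr3:149119216-149119882, chr13:92354113-92354650 and chr9:85212601-85212989 stood at 0.346, 8.06 and 2.21 with WX-02-23 and at 93.0, 93.3 and 87.4 with WX-02-43. Each of these 5 sites was listed with DMSO, PladB and siControl and in both engineered lines with DMSO. In WT cells with WX-02-23, the site at chr9:128103771-128104186 was not listed and the other 4 were. At the top of both rankings stood chr9:110581552-110583021, chr7:12259568-12261394 and chr1:145244978-145247313, which were listed in 10, 9 and 10 of the other 10 lists. Scores of 3100 recur in both lists, in 27 WX-02-23 and 21 WX-02-43 peaks, so the order within the uppermost peaks is partly tied.

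The engineered lines offered libraries that the choice of members did not use, with WX-02-23 but not WX-02-43. Of the private WX-02-23 peaks, 27.3% (26.0 to 28.5%) were listed in induced WT cells with DMSO and 32.3% (31.0 to 33.6%) after WX-02-23. Of the private WX-02-43 peaks, 34.9% (33.7 to 36.2%) were listed after DMSO and 18% (17 to 19%) after WX-02-23. Counted by site, the WT lists held 505 private WX-02-23 peaks after WX-02-23 but not after DMSO, and 259 the other way round. Of the private WX-02-43 peaks, 110 were listed after WX-02-23 but not after DMSO, and 1114 the other way round. The shared WX-02-23 peaks give the level beside these: 54.1% of them were listed after DMSO and 47.9% after WX-02-23, with 600 after WX-02-23 alone and 1363 after DMSO alone. The change, WX-02-23 minus DMSO, was thus -6.20 points for shared peaks, 5.00 points for private WX-02-23 peaks and -17.0 points for private WX-02-43 peaks, and the WX-02-23 list was the shorter.

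In induced C258A cells the shares were 8.92% (8.16 to 9.75%) after DMSO and 20.3% (19.2 to 21.4%) after WX-02-23 for private WX-02-23 peaks. For private WX-02-43 peaks they were 13.9% (13.0 to 14.8%) and 18.5% (17.5 to 19.5%). Shared WX-02-23 peaks stood at 30.2% and 44.3%. Their change of 14.1 points was larger than the 11.4 points of private WX-02-23 peaks, which started from a lower share. By site, the C258A lists held 578 private WX-02-23 peaks after WX-02-23 but not after DMSO, and 19 the other way round. The counts were 393 and 119 for private WX-02-43 peaks, and 1918 and 184 for shared WX-02-23 peaks. These lists differ in length, with 31735 and 25849 peaks in WT cells and 13299 and 20609 in C258A cells. All 4 were therefore cut to their 13299 highest-scoring peaks, which was decided once the list lengths were known. Private WX-02-23 peaks were then listed at 12% after DMSO and 18.8% after WX-02-23 in WT cells, and at 8.92% and 12.2% in C258A cells. Private WX-02-43 peaks were listed at 14.6% and 8.27% in WT cells, and at 13.9% and 10.9% in C258A cells. At this length the difference, WX-02-23 minus DMSO, was 6.81 points in WT and 3.31 points in C258A cells for private WX-02-23 peaks. For private WX-02-43 peaks it was -6.37 and -3.01 points. Shared WX-02-23 peaks gave -1.07 and 2.71 points. In points, the value of private WX-02-23 peaks in C258A cells was thus close to that of shared peaks. The shares after DMSO were 8.92% and 30.2%. Whether the lines differ was not tested, since each condition has 1 library.

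The strongest private peaks of the 2 compounds were listed at different shares in most lists of both lines. Here the lists were taken at their deposited lengths. In the highest quintile by score, 71 of 84 private WX-02-23 peaks (84.5%, 75.3 to 90.7%) and 30 of 77 private WX-02-43 peaks (39.0%, 28.8 to 50.1%) were listed in WT cells with WX-02-23. With DMSO the shares were 51.2% (40.7 to 61.6%) and 85.7% (76.2 to 91.8%). Shared peaks of the same quintile stood at 68.0% of the WX-02-23 and 62.8% of the WX-02-43 list with WX-02-23, and at 67.7% and 70.2% with DMSO. The C258A list with WX-02-23 gave shares of 60.7% and 67.5%, with intervals that overlapped, beside 65.9% and 64.0% of shared peaks. The induced C258A list with DMSO, which was shorter, held 16 of 84 private WX-02-23 peaks (interval 12.1 to 28.7%). It held 51 of 77 private WX-02-43 peaks (55.1 to 75.8%), beside 49.3% and 53.7% of shared peaks. Without doxycycline, 3.57% (1.22 to 9.98%) of these WX-02-23 peaks and 79.2% (68.9 to 86.8%) of these WX-02-43 peaks were listed in the WT line. Shared peaks of the quintile stood there at 65.6% and 74.4%. In the C258A line 11.9% and 93.5% of the private peaks were listed without doxycycline, beside 79.0% and 85.7% of shared peaks.

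**Figure D4:**
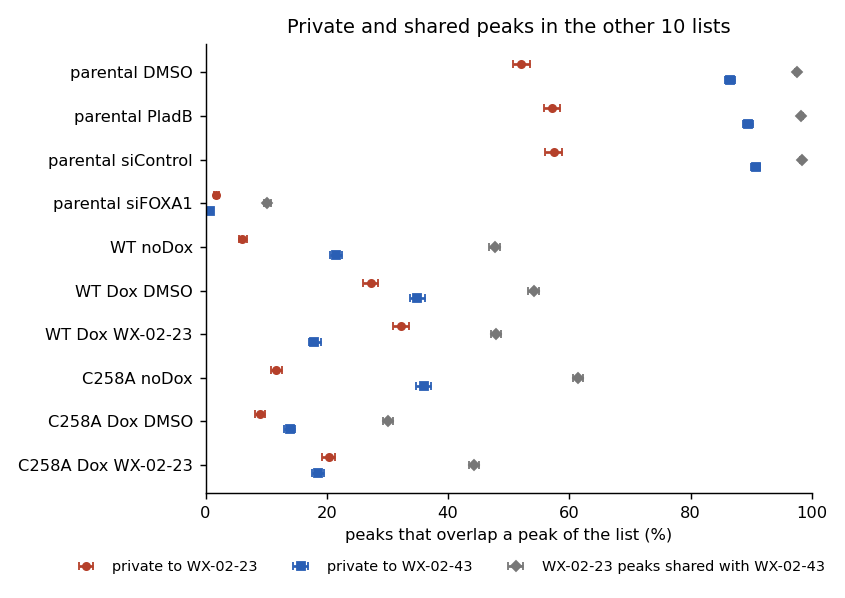
Share of peaks private to WX-02-23 (circles), private to WX-02-43 (squares) and shared (diamonds) that overlap a peak of each other list (x axis, %; lists on the y axis), with Wilson 95% intervals. Private WX-02-23 peaks lie above private WX-02-43 peaks in the WX-02-23 lists of both engineered lines (32.3% and 18% in WT cells) and in the siFOXA1 list, and below them in the other 7 lists.

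Shared sites whose rank differed in parental cells were then looked up in the same 4 lists at 13299 peaks each. Of the 1557 pairs ranked higher with WX-02-23, 30.4% (28.2 to 32.8%) were listed in WT cells after DMSO and 45.2% (42.8 to 47.7%) after WX-02-23. Of the 1567 pairs ranked lower, 43.5% (41.1 to 46.0%) were listed after DMSO and 24.9% (22.8 to 27.1%) after WX-02-23. The 8871 pairs that changed by under 25 points stood at 31.9% and 31.2%. In C258A cells the pairs ranked higher stood at 25% (22.9 to 27.2%) after DMSO and 39.2% (36.8 to 41.6%) after WX-02-23. The pairs ranked lower stood at 39.1% (36.7 to 41.5%) and 33.6% (31.3 to 36.0%). Pairs that changed by under 25 points stood there at 29.7% and 31.7%. For pairs ranked higher the difference, WX-02-23 minus DMSO, was 14.8 points in WT and 14.2 points in C258A cells. For pairs ranked lower it was -18.6 and -5.42 points. With the lists as deposited, the pairs ranked lower in C258A cells stood at 39.1% after DMSO and 50.3% after WX-02-23, so list length turned that direction.

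**Figure D5:**
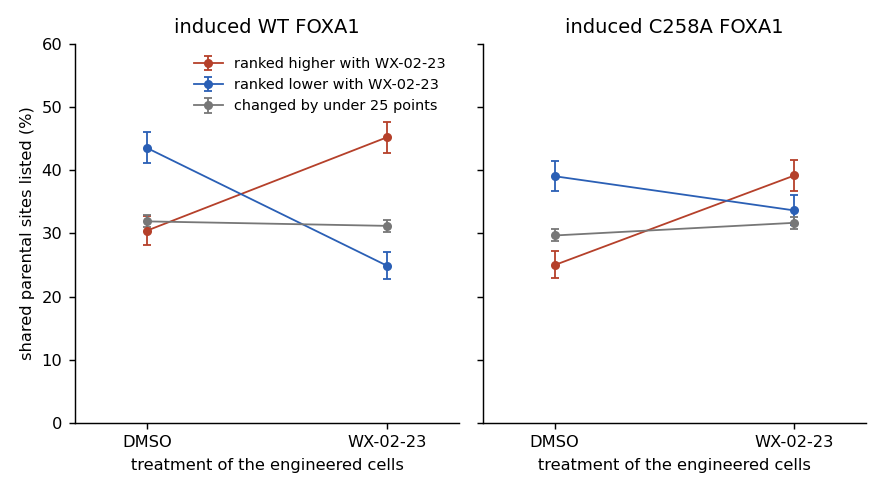
Share of shared parental sites (y axis, %) listed in induced WT cells (left) and induced C258A cells (right) with DMSO or WX-02-23 (x axis), all 4 lists at 13299 peaks, with Wilson 95% intervals. Sites ranked higher with WX-02-23 in parental cells stand, after WX-02-23, at 45.2% in WT and 39.2% in C258A cells, and sites ranked lower at 24.9% and 33.6%.

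Knockdown of FOXA1 left a list of 3018 peaks. It held 86 private WX-02-23 peaks (1.75%, 1.42 to 2.15%), 45 private WX-02-43 peaks (0.761%, 0.569 to 1.02%) and 10.2% of the shared peaks of either list. At 1200 one-to-one pairs that were listed with siFOXA1, the 2 compounds ranked nearly alike: rho was 0.89 and the median change 3.68 points. At the 10795 other pairs rho was 0.60 and the median change 14.3 points. The pairs listed with siFOXA1 were strong, with a median percentile of 84.3 with WX-02-23, where ranks have less room to move.

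Private peaks were spread over all chromosomes. Among the autosomes and X, the private share of the WX-02-23 list ran from 24.7% on chromosome 16 to 33.5% on chromosome 17, beside 28.6% over all chromosomes. The interval lay above that level on chromosomes 13 and 17 and below it on chromosome 7. For WX-02-43 it ran from 29.3% on chromosome 8 to 43.6% on chromosome 17, beside 32.5%, and the interval lay above on chromosome 17 and below on chromosome 8. With so many intervals, some lie outside by counting error alone. Chromosome 17 stood out with WX-02-43: 202 of 463 peaks were private (39.2 to 48.2%), and 86.1% of these were DMSO peaks, close to the 86.5% of all private WX-02-43 peaks. With WX-02-23, 131 of 391 peaks there were private (29.0 to 38.3%). Of these, 63.4% were DMSO peaks, above the 52.0% of all private WX-02-23 peaks. Chromosome 17 held 2.27% of the WX-02-23, 2.54% of the WX-02-43, 2.83% of the DMSO and 3.08% of the siControl peaks.

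More peaks were private to WX-02-43 than to WX-02-23 on 23 of 24 chromosomes, and the exception was chromosome 8, with 274 private to WX-02-43 and 278 to WX-02-23. The WX-02-43 list is the longer, and at equal length the private share was higher for WX-02-23 on 11 of 24 chromosomes. Over all chromosomes there were 0.831 private WX-02-23 peaks for each private WX-02-43 peak. The ratio was lowest on chromosomes 16 and 17, at 0.604 and 0.649. Copy number was not analysed here. Pairs ranked higher with WX-02-23 by 25 points or more made up 9.76% to 15.7% of pairs on the autosomes and X. Chromosome Y lay outside, with 19 of 77 pairs (24.7%) ranked higher and 3 (3.90%) lower. Chromosome Y also held the widest WX-02-23 peak, chrY:58841472-58859181, of 17710 bp, beside a median of 641 bp in that list. Its score was 211.68. How uniquely reads map on chromosome Y was not analysed.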

How the data were processed

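FOXA1 ChIP-seq peaks were analysed as 12 deposited lists, 1 per library; 3 input libraries were not used. The submitters' processing notes name bcl2fastq, Bowtie2 (a read aligner) and the build hg19, without versions or order. Peak names begin with MACS, a peak caller, per the files themselves; its version, thresholds and control are not given in the sources used here. Each deposited file holds chromosome, start, end, name and the authors' score, which is at least 90 and whose definition is not stated. Read depth is unknown.

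Overlaps were computed with bedtools 2.31.1, and intervals with scipy 1.17.1 at 95%. Ties in score share a mean rank. The functions for overlap, ranks and distances were tested on simulated data. Members, lists and tests were chosen with earlier results of these data known. Regions were named by rule: the 6 highest-scoring private peaks of each list, the 5 largest rank differences each way among pairs with a peak in the top 25%, the 3 highest pairs, and the 3 windows of 1 Mb per compound with the most private peaks. Comparisons of rank among parental lists at common sites, and of shared pairs with the siFOXA1 and induced lists, were added after the values were seen. Motifs, gene positions and gene lists were not analysed here, because they need a genome and annotation of hg19; genes per chromosome were counted from a RefSeq table of the GRCh38.p14 assembly. Alternatives were the overlap rule, list length, a stricter score threshold, autosomes alone, the pairs and thresholds used for ranks, and window size.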

Additional observations from a re-analysis of the deposited data

Results flagged for a closer look

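In the engineered lines, 5 sets of parental sites were listed less often with WX-02-23 than with DMSO in induced WT cells and more often in induced C258A cells. Each condition had 1 library, and the difference between the lines was not tested. For private WX-02-43 peaks the change was -17.0 percentage points in WT and 4.63 in C258A cells. For pairs ranked lower with WX-02-23 in parental cells it was -24.7 and 11.2 points. Pairs that changed rank by under 25 points gave -5.63 and 12 points. Shared WX-02-23 peaks gave -6.20 and 14.1 points, and shared WX-02-43 peaks, which are largely the same sites, -6.19 and 14.1. The WT list was shorter with WX-02-23 (25849 peaks against 31735) and the C258A list longer (20609 against 13299). With 13299 peaks in each, private WX-02-43 peaks gave -6.37 and -3.01 points and pairs ranked lower -18.6 and -5.42, so these no longer pointed in opposite directions. Pairs that changed by under 25 points gave -0.71 and 2.01, shared WX-02-23 peaks -1.07 and 2.71 and shared WX-02-43 peaks -1.03 and 2.75, still opposite and smaller.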

How the results depend on the processing

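For 89 results, 164 alternative values were computed. Of these, 107 stayed within the main value's interval or within 1.5 times the main count, and 57 moved. No value has a test, so no call was lost. All 17 values from autosomes alone and 47 of 48 chromosome shares at equal length stayed.

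A reciprocal overlap of 50% gave shared shares of 68.0% for WX-02-23 and 64.3% for WX-02-43, private peaks listed with DMSO of 47.6% and 79.7%, median score percentiles of private peaks of 26.2 and 26.9, a median gap of private WX-02-43 peaks of 38.7 kb and a rho of 0.69. Counting peaks within 500 bp as shared gave shared shares of 72.3% and 68.3%. With both lists cut to the shorter length, 69.6% of each was shared and private peaks were listed with DMSO at 54.1% and 88.3%. The WX-02-43 medians were then 557 bp and 44.0 kb for private and 712 bp and 41.7 kb for shared peaks.

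The top 50% of each list by score moved all 17 values, by construction for the counts, widths and gaps. A peak whose only partner lay in the lower 50% of the other list was counted as private here. The DMSO shares of this setting therefore include such peaks. In deciles 1 to 5 of the full lists, 59.6% to 72.7% of private WX-02-23 peaks were DMSO peaks. For private WX-02-43 peaks the range was 97.3% to 100%. For WX-02-23 and WX-02-43 the top 50% gave shared shares of 73.0% and 69.1%, with 2320 and 2820 private peaks. Of these private peaks, 82.7% and 99.1% were listed with DMSO. Private peaks had median widths of 726 and 723 bp, gaps of 90.2 and 83.9 kb and percentiles of 26.3 and 26.5, shared peaks widths of 851 and 843 bp and gaps of 90.1 and 83.0 kb, and rho was 0.63. Counting every overlapping pair gave a rho of 0.64. Rank changes of 10 points or more were found for 3480 pairs ranked higher and 3481 lower, and of 50 points or more for 315 and 328. Windows of 2 Mb held up to 22 private WX-02-43 peaks, against 12 in windows of 1 Mb.

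Cutting the induced lists to equal length, an alternative added after seeing the data, moved 15 of 20 values. The share of private peaks listed with DMSO was lower for WX-02-23 than for WX-02-43 under each of the 5 alternatives run on it. No paired analysis was possible because each condition has 1 library and the labels carry no replicate numbers. Depth is unknown, so a site absent from a list cannot be told apart from a site under its threshold.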

Other observations

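Of the windows of 1 Mb with the most private peaks, all but a window on chromosome 8 lay close together on the long arm of chromosome 1. For WX-02-23 they were chr1:148000001-149000000, with 17 private and 20 shared WX-02-23 peaks, and chr1:144000001-145000000, with 15 and 28. The third was chr8:86000001-87000000, with 9 and 8. For WX-02-43 they were chr1:145000001-146000000 with 12 private and 11 shared WX-02-43 peaks, chr1:149000001-150000000 with 11 and 24, and again chr1:144000001-145000000 with 10 and 26. These windows were ranked by count, which also grows with the number of peaks in a window. How uniquely reads map in these windows was not analysed, and neither was copy number. Over the whole lists, 28.6% of WX-02-23 and 32.5% of WX-02-43 peaks were private. The private share lay above that level in the WX-02-23 windows and, for WX-02-43, in chr1:145000001-146000000. It lay below in the other WX-02-43 windows. Of 2873 windows that held a peak, 1871 held private peaks of both compounds.

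The balance of the lists was also set against gene density. Across 22 autosomes, Spearman's rho between protein-coding genes per Mb (up to the last peak) and the number of WX-02-23 peaks per 100 WX-02-43 peaks was -0.29. Without chromosomes 17 and 19 it was -0.05 over 20 autosomes. Both values are descriptions, and the first rests on those chromosomes.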
